A study of Mus musculus with 6 samples.

Results

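Genes of lung fluid movement were followed in 2 sorted populations of mouse lung cells, and Aqp1, a water channel, was lower in the adult cells while the other members did not pass the test. The set held 9 genes, each of them measured, of the 18193 genes with a probe set on the array. They were chosen by name for their part in fetal secretion and adult absorption of lung fluid. They are the epithelial sodium channel subunits Scnn1a, Scnn1b and Scnn1g, the sodium pump subunit Atp1b1, the chloride channel Cftr, the chloride loader Slc12a2 and the aquaporins Aqp1, Aqp3 and Aqp4. The choice was made with earlier results of these data known. Each value is the log2 signal of the gene's brightest probe set, a group of short probes for 1 transcript, and all 21 probe sets of the 9 genes were examined.

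The adult samples were Lyz2+/EpCAM+ cells from adult mouse lungs, called ATII cells by the series after the surfactant-making alveolar type II cell. The E18 samples were Muc1+/Pdpn+ cells sorted from lungs at embryonic day 18, called bipotent progenitors after the fetal cells that form both alveolar epithelial types. Each group had 3 labelled biological replicates with 1 Affymetrix array each, and the study compared expression between these populations. E18 replicates 1 and 2 were closely alike, with a Pearson correlation of 0.983 over the genes tested. The other pairs within a group had 0.777 to 0.928. Pairs between the groups had 0.761 to 0.841, so adult replicate 3 was not clearly more like its own group. Age and sorted population differ together and cannot be told apart. Strain, sex and pooling of animals were not given in the sources used here, so p-values measure the spread between these samples.

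Before birth the lung epithelium secretes fluid into the airspaces. Slc12a2 (NKCC1) loads chloride across the basolateral membrane, Cftr is 1 of the apical exits for chloride, and sodium and water follow. Around birth the direction turns to absorption: the apical channel ENaC, built from the products of Scnn1a, Scnn1b and Scnn1g, admits sodium, and the basolateral Na,K-ATPase, to which Atp1b1 contributes the beta subunit, pumps it out. In the lung Aqp1 is known mainly from endothelium, Aqp3 from basal cells of the large airways and Aqp4 from airway epithelium, with Aqp5 on type I cells.

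Of the 9 genes, 1 was lower in the adult arrays at an adjusted p under 0.05, 0 were higher and 8 did not pass limma's test over all genes. The background was 5.98% of 13335 genes tested, made up of 4.57% lower and 1.41% higher. At an unadjusted p under 0.05 there were 3 members, Aqp1, Cftr and Scnn1g, each lower in the adult arrays, beside 21.6% of all genes. All 9 were tested, and 7 of them reached the detection floor, the 40th percentile of signals on an array, on every array, while Cftr and Aqp4 were under it on adult replicate 2. The median difference of the 9, adult minus E18 on the log2 scale as throughout, was -0.42, beside -0.17 for all genes tested. Adult and E18 arrays did not overlap for 2 of the 9, Aqp1 and Cftr, beside 28.9% of all genes.

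**Figure D1:**
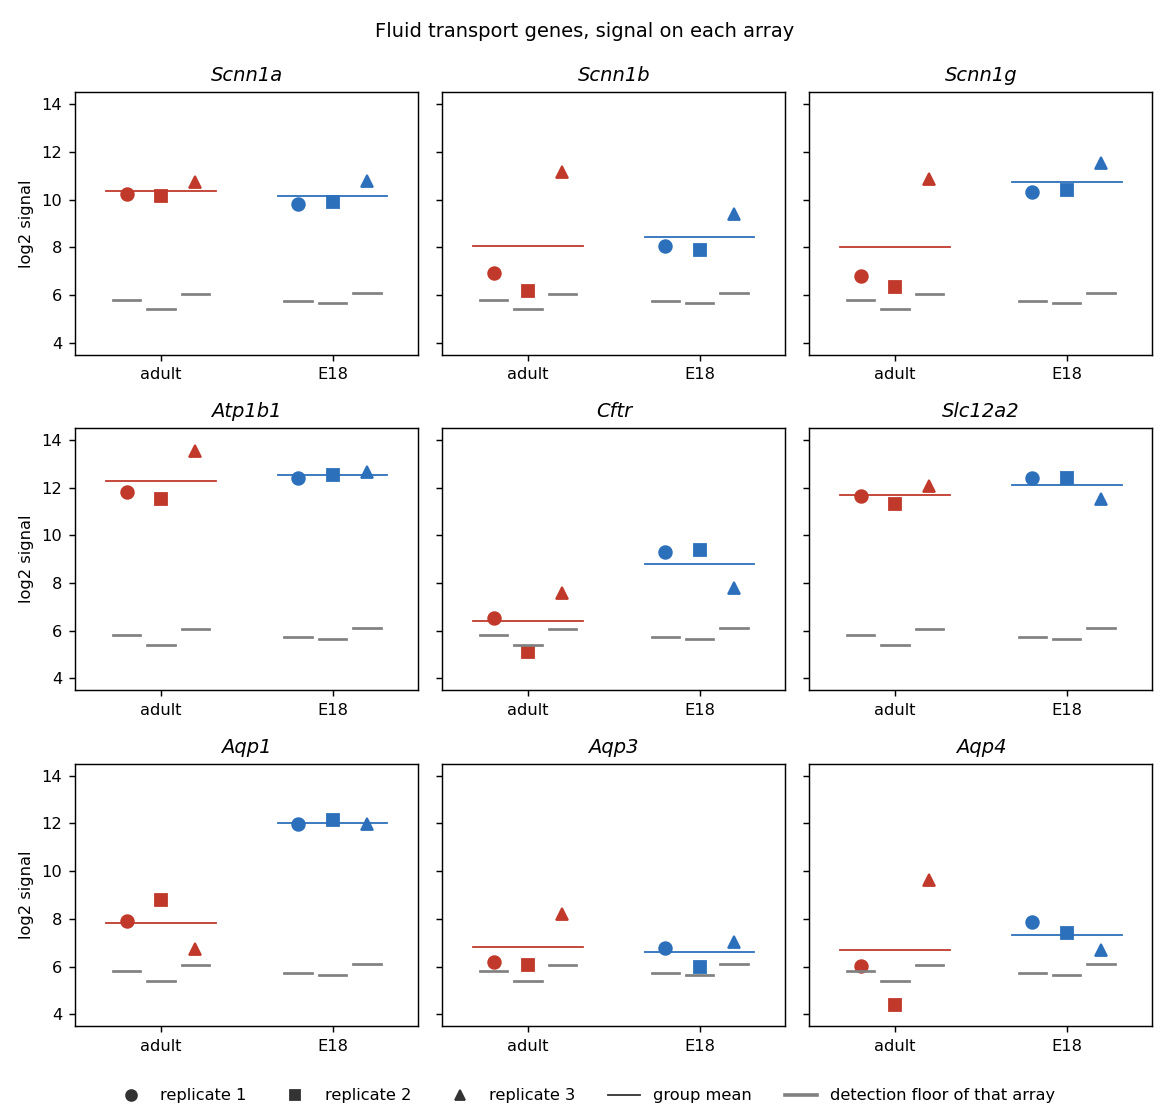
Log2 signal of each of the 9 genes on the 3 adult arrays (left, red) and the 3 E18 arrays (right, blue), with replicate numbers as symbols, coloured lines for group means and grey ticks for the detection floor of each array. Aqp1 lies between 6.72 and 8.81 in adult arrays and between 11.98 and 12.13 in E18 arrays, and adult replicate 3 stands above the other adult arrays for Scnn1b, Scnn1g and Aqp4.

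Adult replicate 3 stood apart from the other adult arrays, and this touches most of the members. Its epithelial markers were brighter: the summed linear signal of 11 general epithelial genes was 4628, 6084 and 61523 in adult replicates 1, 2 and 3, and 34036, 36742 and 38642 in E18 replicates 1, 2 and 3. The epithelial adhesion gene Epcam, whose product was used in the adult sort, stood at 7.85, 8.50 and 10.68 in the adult arrays and at 10.69, 11.31 and 9.26 in the E18 arrays. Its airway markers were brighter too, with summed signals of 20897, 24644 and 146665 for 6 club cell genes and 2055, 6586 and 31432 for 8 ciliated cell genes in adult replicates 1, 2 and 3. The E18 arrays held 25036 to 39317 for club cell genes and 2435 to 3492 for ciliated cell genes. Leukocyte markers ran the other way within the adult arrays, at 145653, 100968 and 54816, and were 34909 to 46669 in the E18 arrays. The surfactant gene Sftpc, which marks type II cells, was bright on all arrays, at 14.56 ± 0.10 in adult and 14.04 ± 0.14 in E18 arrays (SD, n = 3 each, limma adjusted p = 0.258). Of 11 type II cell genes tested 1 was lower and 0 were higher, with a median of -0.05, and their summed signal was 55482, 64787 and 87574 in adult replicates 1, 2 and 3 and 85930, 84772 and 61809 in E18 replicates 1, 2 and 3. The lower gene was Lyz2, the lysozyme gene that names the adult sort, at 11.44, 11.28 and 11.13 in adult replicates 1, 2 and 3 and at 14.13, 14.04 and 14.27 in E18 replicates 1, 2 and 3, a difference of -2.86 (SE 0.25, limma adjusted p = 0.00303). Its level thus ran against the sort marker in the adult label, and directions here are between samples as labelled. Pdpn, a marker of the E18 sort, was also lower in adult arrays, with a difference of -2.27 (limma adjusted p = 0.00924), and Muc1, the other E18 marker, differed by -2.07 (limma adjusted p = 0.206). Nkx2-1, the lung epithelial transcription factor, was under the floor on all E18 arrays and on 2 of the 3 adult arrays. Replicate 3 of both groups also had high poly-A spike-in signals, with a median of 20034 in adult and 13738 in E18 replicate 3, against 43.0 to 282 on the other arrays. In bulk samples like these, fewer cells of a type and less RNA per cell cannot be told apart.

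Aqp1 encodes a water channel of capillary endothelium, red cells and other fluid-moving membranes. It had log2 signals of 7.91, 8.81 and 6.72 in adult replicates 1, 2 and 3, and of 12.0, 12.13 and 11.98 in E18 replicates 1, 2 and 3. Every adult array was at least 3 log2 units below every E18 array, and the E18 arrays were closely alike. The mean was 7.81 ± 1.05 in adult arrays and 12.04 ± 0.09 in E18 arrays (SD, n = 3 each), a difference of -4.23 (SE 0.51, limma adjusted p = 0.00834), which is 18.7-fold lower in the adult arrays. The difference was -3.71 in replicates 1 and 2 alone (limma adjusted p = 0.00597) and -5.26 in replicate 3, which is 1 array against 1 and has no test. Without E18 replicate 1 the limma adjusted p was 0.0511 and without E18 replicate 2 it was 0.0548, with differences of -4.25 and -4.18. With E18 replicates 1 and 2 averaged into 1 sample it was 0.0552, with a difference of -4.21.

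Some markers of other cell types that carry Aqp1 were also lower in the adult arrays, where the share of all genes lower was 4.57% at an adjusted p under 0.05. At an unadjusted p under 0.05 the share of all genes was 21.6%, counted in either direction. Of 14 endothelial genes 4 were lower and 0 higher, with 12 lower at an unadjusted p under 0.05, and their summed signal was 4420 to 5130 in adult arrays and 9924 to 33666 in E18 arrays. Pecam1, the defining endothelial adhesion molecule, stood at 3.84, 6.21 and 3.41 in adult arrays and at 8.71, 8.44 and 6.81 in E18 arrays. Among E18 arrays, the endothelial sum was 32501 and 33666 in replicates 1 and 2 and 9924 in replicate 3, whereas Aqp1 differed by 0.16 at most among them. Of 14 mesenchymal genes 12 were lower and 0 higher, with sums of 2537 to 15498 in adult and 45422 to 77474 in E18 arrays. Of 6 mesothelial genes 3 were lower and 0 higher, with sums of 926 to 7373 in adult and 8568 to 11745 in E18 arrays. The keratin Krt19 gave much of these sums. It gave 7048 of the 7373 in adult replicate 3, and 3758 to 5589 in E18 arrays. The defining gene Wt1 reached the floor in no adult sample. Of 3 erythroid genes tested 0 passed limma's test, with 2 lower and 0 higher at an unadjusted p under 0.05. The red cell gene Hba-a1 was below the floor in each of the 6 samples, and the erythroid sum over 5 genes was 122 to 171 in adult and 273 to 620 in E18 arrays. The part of these cells in the Aqp1 result was not tested. Type I cell genes were lower as well, 6 of 12, with 0 higher. Pdpn, on which the E18 cells were sorted, is among those 6, so this count is not independent of the sort.

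**Figure D2:**
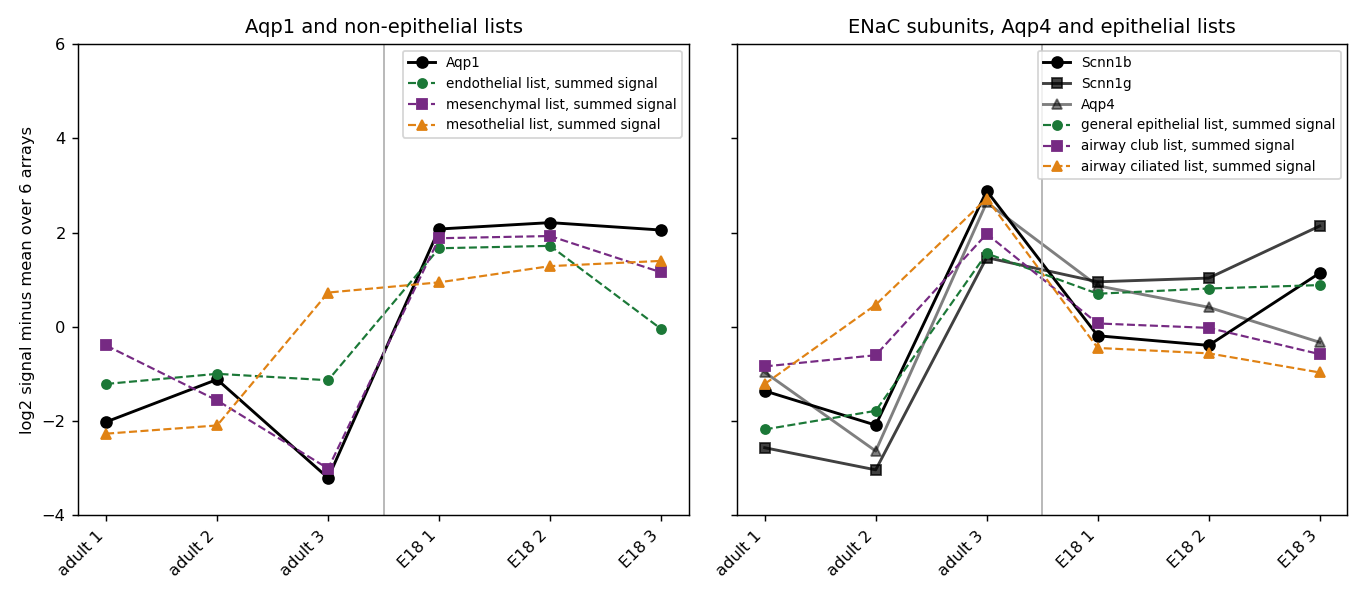
Each line gives log2 signal minus its mean over the 6 arrays, with adult replicates 1 to 3 on the left of each panel and E18 replicates 1 to 3 on the right; solid black and grey lines are genes and dashed coloured lines are summed marker lists. Aqp1 is level over the E18 arrays while the endothelial sum is lower in E18 replicate 3, and Scnn1b, Scnn1g and Aqp4 are highest among adult arrays in adult replicate 3, as are the epithelial and airway lists.

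None of the epithelial sodium channel subunits passed over all 6 arrays. Scnn1a, the alpha subunit that is needed for a working channel, had log2 signals of 10.22, 10.16 and 10.76 in adult replicates 1, 2 and 3 and of 9.80, 9.88 and 10.79 in E18 replicates 1, 2 and 3. The groups overlapped and differed by 0.22 (SE 0.37, limma adjusted p = 0.772), and the 95% interval of the difference was -0.64 to 1.09. Its adult replicates 1 and 2 were not low, although their epithelial markers were.

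Scnn1g, the gamma subunit, had log2 signals of 6.81, 6.34 and 10.85 in adult replicates 1, 2 and 3 and of 10.33, 10.41 and 11.52 in E18 replicates 1, 2 and 3. Adult replicates 1 and 2 lay near the floor and adult replicate 3 lay among the E18 arrays. The difference was -2.75 (SE 1.11, limma adjusted p = 0.204), with a 95% interval of -5.33 to -0.17 before adjustment. In replicates 1 and 2 alone it was -3.79 (limma adjusted p = 0.00492), without adult replicate 3 it was -4.18 (limma adjusted p = 0.00193), and within replicate 3 it was -0.67.

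Scnn1b, the beta subunit, had log2 signals of 6.90, 6.17 and 11.14 in adult replicates 1, 2 and 3 and of 8.07, 7.86 and 9.40 in E18 replicates 1, 2 and 3. Adult replicate 3 was above all E18 arrays and the other adult arrays were below them. The difference was -0.37 (SE 1.22, limma adjusted p = 0.889), with a 95% interval of -3.20 to 2.46, which does not exclude a rise or a fall of several fold. It was -1.43 in replicates 1 and 2 alone (limma adjusted p = 0.0518), -1.91 without adult replicate 3 (limma adjusted p = 0.0432) and 1.74 within replicate 3. Scnn1b and Scnn1g are neighbours on chromosome 7, with 96.6 kb between the annotated genes on GRCm38.p6.

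Atp1b1, the beta subunit that carries the sodium pump to the membrane, was bright on all arrays. It had log2 signals of 11.81, 11.53 and 13.53 in adult replicates 1, 2 and 3 and of 12.38, 12.53 and 12.66 in E18 replicates 1, 2 and 3. Adult replicates 1 and 2 were below the E18 arrays and adult replicate 3 above them. The difference was -0.24 (SE 0.51, limma adjusted p = 0.828), with a 95% interval of -1.43 to 0.96. The 5 probe sets of Atp1b1 gave differences from -1.52 to -0.24, none of them past limma's test over probe sets. The -1.52 came from a dim probe set, under the floor on adult replicates 1 and 2 and on E18 replicate 3. The brightest probe set gave the smallest difference, and the mean of probe sets gave -0.81 (limma adjusted p = 0.490). Over all 9 genes 1 of 16 tested probe sets passed, that of Aqp1, beside 3.96% of all probe sets tested.

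Neither chloride secretion gene passed over all 6 arrays. Cftr, the cAMP-gated apical chloride channel, had log2 signals of 6.53, 5.09 and 7.57 in adult replicates 1, 2 and 3 and of 9.29, 9.37 and 7.78 in E18 replicates 1, 2 and 3. Each adult array was below each E18 array, with replicate 3 of both groups nearly level. The mean was 6.40 ± 1.25 in adult arrays and 8.81 ± 0.89 in E18 arrays (SD, n = 3 each), a difference of -2.42 (SE 0.72, limma adjusted p = 0.103). It was -3.52 in replicates 1 and 2 alone (limma adjusted p = 0.0141), -3.0 without adult replicate 3 (limma adjusted p = 0.0176) and -0.21 within replicate 3. The probe set used for Cftr has a suffix that marks probes shared by several transcripts, and the other Cftr probe set reached the floor in no sample.

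Slc12a2, the cotransporter that brings sodium, potassium and chloride into the cell, had log2 signals of 11.67, 11.32 and 12.07 in adult replicates 1, 2 and 3 and of 12.41, 12.40 and 11.51 in E18 replicates 1, 2 and 3. The groups overlapped and the gene was bright throughout. The difference was -0.42 (SE 0.36, limma adjusted p = 0.547), with a 95% interval of -1.26 to 0.41. Its 3 probe sets gave -0.42, -0.12 and -0.16, and none passed.

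Among the E18 arrays, replicate 3 stood apart for the ENaC subunits, Cftr and Slc12a2. Scnn1a, Scnn1b and Scnn1g were each highest there, at 10.79, 9.40 and 11.52, and Cftr and Slc12a2 each lowest, at 7.78 and 11.51. For Slc12a2 this depended on the probe set: of its other probe sets, 1 was also lowest there, at 10.31, 10.78 and 10.00 in E18 replicates 1, 2 and 3, and 1 was highest there, at 9.40, 9.86 and 10.42. The other E18 replicates, 1 and 2, differed by at most 0.204 for each of these 5 genes, by the brightest probe set. Atp1b1, the pump gene of absorption, had no single direction. Its brightest probe set was highest in E18 replicate 3, at 12.66, and each of its other probe sets was lowest there. These values describe 1 array and have no test.

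**Figure D3:**
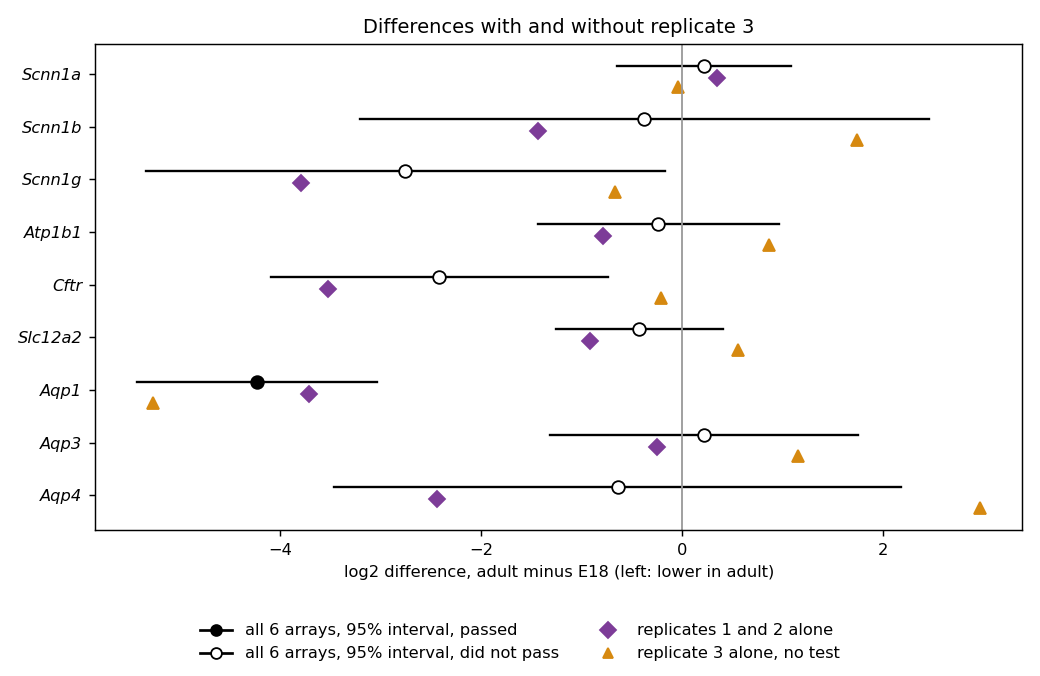
Log2 difference, adult minus E18, of each gene with its 95% interval over all 6 arrays (circles, filled where the adjusted p is under 0.05), in replicates 1 and 2 alone (diamonds) and in replicate 3 alone (triangles, no test). Aqp1 is lower in every case, while for Scnn1b, Atp1b1, Slc12a2, Aqp3 and Aqp4 replicate 3 lies on the other side of 0 from replicates 1 and 2, as it does by a small margin for Scnn1a.

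The airway aquaporins were dim and uneven. Aqp4, a water channel of airway and brain, had log2 signals of 6.04, 4.37 and 9.64 in adult replicates 1, 2 and 3 and of 7.88, 7.42 and 6.68 in E18 replicates 1, 2 and 3. Adult replicate 3 was the highest array and adult replicate 2 the lowest, under its floor of 5.40. The difference was -0.64 (SE 1.21, limma adjusted p = 0.798), with a 95% interval of -3.46 to 2.18. It was -2.44 in replicates 1 and 2 alone (limma adjusted p = 0.0559) and 2.97 within replicate 3. These values are of the brightest probe set. Another tested probe set of Aqp4 differed by -0.51 (limma adjusted p = 0.608 over probe sets). There each adult array was below each E18 array and under its floor. The remaining probe set, too dim to test, differed by 0.34.

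Aqp3, a channel for water and glycerol, had log2 signals of 6.21, 6.07 and 8.19 in adult replicates 1, 2 and 3 and of 6.78, 6.0 and 7.04 in E18 replicates 1, 2 and 3. Adult replicate 3 was again the highest and the other arrays lay near the floor. The difference was 0.22 (SE 0.66, limma adjusted p = 0.877), with a 95% interval of -1.31 to 1.75. The basal cell keratin Krt5, a marker of cells that carry Aqp3, stood at 6.83 ± 0.34 in adult and 5.73 ± 0.32 in E18 arrays (SD, n = 3 each, limma adjusted p = 0.204), and the basal gene Trp63 reached the floor in no sample. Krt5 does not stand for its list: of 4 basal cell genes tested, 1 was lower and 0 were higher, with a median of -0.49. The lower gene, Krt15, a basal keratin named after its values were seen, differed by -5.69 (limma adjusted p = 0.0103). It was under the floor on all adult arrays, so the size of that difference is uncertain. The basal sum over 7 genes was 482 to 1485 in adult and 1080 to 1934 in E18 arrays, and the part of these cells in the Aqp3 values was not tested. The other 3 probe sets of Aqp3 reached the floor in no sample.

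**Figure D4:**
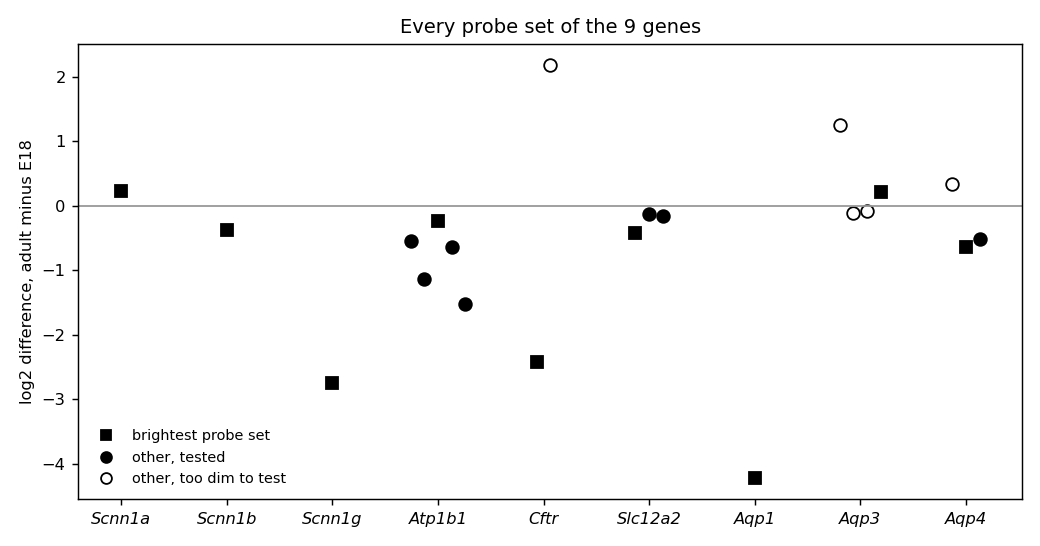
Log2 difference, adult minus E18, for each of the 21 probe sets of the 9 genes, with squares for the brightest probe set of a gene, filled circles for others tested and open circles for those too dim to test. The 5 probe sets of Atp1b1 and the 3 of Slc12a2 all lie below 0, and the open circle of Cftr above 0 belongs to a probe set that reached the floor on no array.

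Where adult replicate 3 was left out, 4 of the 9 genes passed, Scnn1b, Scnn1g, Cftr and Aqp1, each lower in the adult arrays, with 20.8% of all genes passing. In replicates 1 and 2 alone 3 passed, Scnn1g, Cftr and Aqp1, with 22.5% of all genes passing. Both sets leave adult replicates 1 and 2, the arrays with low epithelial signal. With each array centred on the mean of its 10 tested epithelial genes, a scaling chosen after the data were seen, 0 of the 9 passed limma's test and 2 had an unadjusted p under 0.05, while 3.35% of all genes passed, 427 of them higher and 20 lower where the unscaled fit gave 188 higher and 610 lower. On that scale Aqp1 differed by -2.35 (limma adjusted p = 0.191), Scnn1g by -0.88, Cftr by -0.54, Scnn1a by 2.10, Aqp3 by 2.09, Atp1b1 by 1.64, Scnn1b by 1.5, Slc12a2 by 1.45 and Aqp4 by 1.24. The scaling adds 1.87 to each difference, so it turned Scnn1b, Atp1b1, Slc12a2 and Aqp4 to higher.

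The start regions of 4 members are shown because Aqp1 passed on all arrays, Scnn1g, Scnn1b and Cftr passed where adult replicate 3 was left out, and Scnn1b and Scnn1g are neighbours. Each is the RefSeq window from 250 bases before to 50 bases after its reference start, on GRCm38.p6, and 6 of the 9 genes had a window that could be shown. That start is the annotated gene start for Aqp1, Scnn1b and Cftr. The Scnn1g gene is annotated from 121734420, which lies within its window and before its reference start. They lie at chr6:55336049-55336348 for Aqp1, chr7:121734229-121734528 for Scnn1g, chr7:121864788-121865087 for Scnn1b and chr6:18170437-18170736 for Cftr, all on the plus strand. Capitals mark matches on either strand to GGGCGG, the GC box bound by Sp1-type factors, and to CAAGTG, a core bound by NKX2-1. The windows are, 5′ to 3′:
Aqp1: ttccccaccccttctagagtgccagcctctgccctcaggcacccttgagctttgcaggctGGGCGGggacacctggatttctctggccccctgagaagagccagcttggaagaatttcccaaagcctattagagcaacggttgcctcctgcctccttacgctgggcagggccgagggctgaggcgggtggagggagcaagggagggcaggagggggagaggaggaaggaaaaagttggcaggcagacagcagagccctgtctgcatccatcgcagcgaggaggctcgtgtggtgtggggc
Scnn1g: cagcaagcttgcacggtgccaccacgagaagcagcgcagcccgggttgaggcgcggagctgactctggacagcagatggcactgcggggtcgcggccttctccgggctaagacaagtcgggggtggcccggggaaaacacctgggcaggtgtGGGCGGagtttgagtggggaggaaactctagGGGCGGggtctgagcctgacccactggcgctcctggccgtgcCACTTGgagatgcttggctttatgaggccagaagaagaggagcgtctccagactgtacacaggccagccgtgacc
Scnn1b: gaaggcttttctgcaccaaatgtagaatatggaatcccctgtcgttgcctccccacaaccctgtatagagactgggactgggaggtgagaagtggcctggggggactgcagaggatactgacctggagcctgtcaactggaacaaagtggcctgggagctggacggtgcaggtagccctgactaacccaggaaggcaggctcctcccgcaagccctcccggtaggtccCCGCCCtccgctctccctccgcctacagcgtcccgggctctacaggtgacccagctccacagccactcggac
Cftr: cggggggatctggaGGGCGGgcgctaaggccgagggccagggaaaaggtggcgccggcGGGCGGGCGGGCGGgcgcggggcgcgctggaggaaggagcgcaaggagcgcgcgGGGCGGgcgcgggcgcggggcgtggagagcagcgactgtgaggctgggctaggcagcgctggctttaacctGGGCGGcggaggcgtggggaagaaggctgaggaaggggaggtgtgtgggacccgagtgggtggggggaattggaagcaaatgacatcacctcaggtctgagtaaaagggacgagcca
The Cftr window held 6 GC boxes, 3 of which overlap each other, Scnn1g held 2, and Aqp1 and Scnn1b held 1 each. GGGCGG on either strand was in 35.7% of 32851 mouse windows of the same length. The CAAGTG core was in the Scnn1g window, at position -25 from the window's reference start, and in 13.6% of all windows. This match lies after the annotated start of the Scnn1g gene. TATAAA, the TATA box, and TGTTCT, the half-site of the glucocorticoid receptor, were searched on both strands and are not in these 4 windows, and they were in 13.6% and 19.0% of all windows. A match describes letters only.

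For each member that spanned at least 2 log2 units, the nearest genes were those with the lowest root mean square difference after both were centred on their mean over the 6 arrays. For Aqp1 they were Lmcd1 and Col17a1, at 0.36 and 0.34 log2 units. For Scnn1g they were Krtap1-5 and Sema3e, at 0.27 and 0.28, and for Scnn1b Krtap17-1 and Cldn23, at 0.28 and 0.42. For Cftr they were Npr3 and Cenpp, at 0.17 and 0.19, for Aqp3 Muc20 and Mtarc1, at 0.19 and 0.20, and for Aqp4 Cdhr3 and Iyd, both at 0.35. These are descriptions of 6 arrays.

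In 5 lists of other genes of the same transport steps, which held 83 genes, 73 were matched to a probe set and 57 were tested. Of the tested genes 1 was higher, 3 were lower and 53 did not pass, so that 7.02% passed limma's test, a share near the background of 5.98%. For the counts at an unadjusted p under 0.05 given below, the share of all genes was 21.6%, in either direction.

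Of the other sodium pump subunits and FXYD proteins, 1 of 6 tested genes was lower and 0 were higher, with a median of -0.64, and at an unadjusted p under 0.05 there were 2 lower and 0 higher. Fxyd1 (phospholemman), a regulator of the pump, had 5.49, 6.17 and 6.05 in adult replicates 1, 2 and 3 and 9.40, 9.41 and 7.5 in E18 replicates 1, 2 and 3. The difference was -2.87 (SE 0.59, limma adjusted p = 0.0338), and only 1 adult array reached the floor. Fxyd5, another FXYD family regulator, differed by 1.44 (limma adjusted p = 0.249) and the pump subunit Atp1b3 by 0.12 (limma adjusted p = 0.876).

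Of the regulators and proteases of ENaC, 1 of 16 tested genes was lower and 0 were higher, with a median of -0.33, and at an unadjusted p under 0.05 there were 2 lower and 1 higher. Nedd4, a ubiquitin ligase, had 8.62, 9.02 and 11.22 in adult replicates 1, 2 and 3 and 12.79, 12.85 and 12.22 in E18 replicates 1, 2 and 3, a difference of -3.0 (SE 0.65, limma adjusted p = 0.0412). Sgk1, the kinase that raises ENaC at the membrane, differed by -0.25 (limma adjusted p = 0.654) and the protease inhibitor Spint2 by -0.46 (limma adjusted p = 0.682). Chosen after their values were seen, Nedd4l, the ligase that removes ENaC from the membrane, differed by -1.67 (limma adjusted p = 0.110) with no overlap of the groups. Prss8, the channel-activating protease, had 6.95, 7.06 and 10.59 in adult replicates 1, 2 and 3 and 10.21, 10.27 and 9.75 in E18 replicates 1, 2 and 3 (limma adjusted p = 0.287). Nr3c2, the mineralocorticoid receptor, also chosen after its values were seen, was under the floor on all E18 arrays and differed by 2.45 (limma adjusted p = 0.208).

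Of the other chloride, bicarbonate and proton transporters, 1 of 18 tested genes was lower and 0 were higher, with a median of -0.42, and at an unadjusted p under 0.05 there were 4 lower and 2 higher. The gene was Clic5, a chloride channel family protein that is also a type I cell marker, at -3.51 (SE 0.57, limma adjusted p = 0.0171). The kinase Wnk1 differed by -0.08 (limma adjusted p = 0.892) and the scaffold Slc9a3r1, which binds Cftr, by 1.32 (limma adjusted p = 0.143). Ano1, the calcium-gated chloride channel of secreting epithelia, chosen after its values were seen, had 6.94, 6.83 and 10.72 in adult replicates 1, 2 and 3 and 11.88, 11.91 and 12.57 in E18 replicates 1, 2 and 3, a difference of -3.95 (SE 0.98, limma adjusted p = 0.0599).

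Of the potassium channels, 1 of 11 tested genes was higher and 0 were lower, with a median of -0.38, and the same counts held at an unadjusted p under 0.05. Kcnn4, the calcium-gated potassium channel of epithelia and lymphocytes, had 12.79, 11.38 and 11.22 in adult replicates 1, 2 and 3 and 6.77, 6.82 and 7.81 in E18 replicates 1, 2 and 3, so the groups lay well apart. The difference was 4.66 (SE 0.51, limma adjusted p = 0.00594), or 25.3-fold higher. Leukocyte genes were higher in the same arrays, 3 of 11 tested with 0 lower, and their part in the Kcnn4 result was not tested. Kcnk6, another potassium channel, differed by 0.18 (limma adjusted p = 0.769).

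Of the other aquaporins 0 of 6 tested genes passed limma's test, with 0 at an unadjusted p under 0.05 and a median of -0.03. Aqp5, the type I cell water channel, had 8.13, 8.41 and 10.71 in adult replicates 1, 2 and 3 and 9.93, 9.84 and 11.57 in E18 replicates 1, 2 and 3, a difference of -1.36 (limma adjusted p = 0.353), with replicate 3 highest in both groups. Aqp9, a channel for water and small solutes, differed by 0.29 (limma adjusted p = 0.842).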

How the data were processed

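RNA of 3 adult and 3 E18 samples was amplified in 2 cycles, labelled with biotin and hybridized to 1 Affymetrix mouse array each, per the labels' protocols. The deposited values are linear signal intensity per probe set from MAS5 in Affymetrix Expression Console, as the submitters' processing notes name them, and each array has a trimmed mean near 500.00, so the authors scaled them. Signals were log2 transformed with no pseudocount. Of 45101 probe sets, 34945 had 1 gene symbol in the array's gene table. For each of 18193 genes the brightest probe set was used, and 13335 genes at or above an array's 40th percentile on at least 3 arrays were tested with limma 3.58.1 in R 4.3.3, with an intensity trend and Benjamini-Hochberg adjustment over all of them, two-sided. Probe sets were fitted likewise over 28104 probe sets. The percentile is a rank and no measured background, and the number of arrays limits the precision. Intervals use the moderated SE and are not adjusted.

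The members and gene lists were chosen with earlier results of these data known. In the lists of other transport genes, a rule named up to 4 that passed per list, and the 2 brightest where fewer than 2 passed. Nedd4l, Prss8, Nr3c2 and Ano1 were named outside this rule, after their values were seen, as was the marker Krt15. Cell type markers and nearest genes were named apart from the rule. Alternatives covered scaling, filter, floor, pseudocount, probe set choice, variance prior, blocks and leaving out arrays. The fit was tested on simulated data.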

Additional observations from a re-analysis of the deposited data

How the results depend on the processing

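The count of members that passed was 1 in the reported fit. It was also 1 after quantile normalization, median centring, no filter, a floor at the 60th percentile and values set to the floor. The same held for the mean of probe sets, no intensity trend, a pseudocount of 32 and replicate 3 of both groups as a block. The labels name no batch, and that block was drawn from the replicate number. The count was 3 in replicates 1 and 2 alone, 0 with E18 replicates 1 and 2 averaged and 0 with arrays centred on the epithelial list. Each of the last 2 had 2 members at an unadjusted p under 0.05 by limma. Leaving out 1 array gave 0 to 4 members, 1 to 6 of their probe sets and 66 to 2770 of all genes, where the reported fit gave 798 genes. The 0 came without E18 replicate 1 or 2, again with 2 members at an unadjusted p under 0.05 by limma, and the 4 without adult replicate 3. For all genes the count was 2996 in replicates 1 and 2 alone, 63 with E18 replicates 1 and 2 averaged and 447 with arrays centred on the epithelial list. The causes were not tested.

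Aqp1 was lower in all 19 alternatives, from -4.72 to -2.35, and passed in 15, with limma adjusted p from 0.00156 to 0.191. Scnn1g, from -4.18 to -0.88, and Cftr, from -3.52 to -0.54, were lower in each alternative that tested them. Leaving out 1 array turned the direction of Scnn1b (-1.91 to 0.58), Atp1b1 (-0.85 to 0.14), Aqp3 (-0.46 to 0.59) and Aqp4 (-2.12 to 0.52). Centring on the epithelial list gave 1.5 for Scnn1b, 1.64 for Atp1b1, 1.45 for Slc12a2 and 1.24 for Aqp4, and replicates 1 and 2 alone gave -0.25 for Aqp3. The median difference over all genes was -0.17, -0.05 after quantile normalization and -0.02 after median centring.

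Whether replicate numbers pair the samples cannot be decided here. Same-numbered arrays had correlations of deviations of 0.04, -0.14 and -0.06, each resting on deviations from a mean of 3 arrays. Replicate 3 of both groups had high poly-A spike-in signals, with a median of 20034 in adult and 13738 in E18 replicate 3. With the replicate block 492 genes and 1 member passed, Aqp1 (limma adjusted p = 0.0181).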
